A study of Mus musculus with 117 samples.

Results

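The genes described here are Alb, Afp, Afm and Gc, which belong to the albumin family of mouse chromosome 5, and Zhx2 on chromosome 15. They were chosen by name, as 5 of 21631 protein-coding genes of the autosomes and chromosome X, and each was read over its span with 10 kb added on both sides. These windows hold 1694 bins of 200 bp, each counted once, of 13168874 in all. The study profiled liver hepatocytes, the cells that make most plasma proteins, from females 12 weeks old of 9 inbred strains. They were the wild-derived CAST/EiJ, PWK/PhJ and WSB/EiJ, and NZO/HlLtJ, NOD/ShiLtJ, DBA/2J, C57BL/6J, A/J and 129S1/SvImJ. No treatment or transgene is named for any strain. Each strain has chromatin immunoprecipitation libraries of the histone marks H3K27ac, H3K27me3, H3K4me3 and H3K4me1 from 3 mice, and 1 input library. The deposited segmentations give every bin 1 of 14 chromatin states, once per strain with the mice combined, so a strain is 1 value and no spread between mice can be given. The state numbers are used as names only, because the sources used here do not say which marks make up a state.

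Serum albumin, encoded by Alb, is the main protein of plasma and is made by hepatocytes throughout life. Afp encodes alpha-fetoprotein, its fetal counterpart, which the liver makes before birth and shuts down soon after. Afm encodes afamin, a plasma carrier of vitamin E, and Gc encodes the vitamin D binding protein. These genes arose by duplication and still lie in a cluster. Zhx2 encodes a zinc finger and homeobox protein that is known in mice as a repressor of Afp in liver after birth. Enhancers upstream of Afp were mapped in classical work, and the enhancer of Alb also lies well upstream of its start. The files hold no expression values, so whether Alb and Afp were transcribed in these cells was not measured.

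On GRCm38, the build named in the submitters' processing notes as mm10, Alb (gene ID 11657) spans chromosome 5 from 90460870 to 90476602, and Afp (11576) spans 90490714 to 90508907. Afm (280662) spans 90518949 to 90553544. All 3 are on the plus strand, with 14.1 kb between Alb and Afp and 10041 bp between Afp and Afm. Gc (14473) lies 1003 kb to the left of Alb, at 89417511 to 89457898 on the minus strand. Zhx2 (387609) spans chromosome 15 from 57694667 to 57839832, or 145.2 kb. The windows of Alb and Afp share 31 bins, which are 17.2% of the Alb window and 16.1% of the Afp window. Those of Afp and Afm share 51 bins, 26.6% of the Afp window and 18.6% of the Afm window.

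The 250 bases before the transcript start are shown for the 4 chromosome 5 members because the states at these starts set Afp apart from the other 3 in the values that follow. They come from RefSeq on GRCm38.p6, in which 4 of the 5 members, all but Zhx2, were matched by symbol. Capitals mark the motif GTTAAT or its reverse complement ATTAAC, 1 of the motifs searched. The Alb stretch is chr5:90460620-90460869 (+), the Afp stretch chr5:90490464-90490713 (+), the Afm stretch chr5:90518699-90518948 (+) and the Gc stretch chr5:89457899-89458148 (-).
Alb: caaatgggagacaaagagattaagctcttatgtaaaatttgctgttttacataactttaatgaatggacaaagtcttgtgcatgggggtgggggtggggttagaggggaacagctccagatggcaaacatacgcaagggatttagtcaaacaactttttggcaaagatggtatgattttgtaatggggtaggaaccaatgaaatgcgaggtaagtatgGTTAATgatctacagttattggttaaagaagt
Afp: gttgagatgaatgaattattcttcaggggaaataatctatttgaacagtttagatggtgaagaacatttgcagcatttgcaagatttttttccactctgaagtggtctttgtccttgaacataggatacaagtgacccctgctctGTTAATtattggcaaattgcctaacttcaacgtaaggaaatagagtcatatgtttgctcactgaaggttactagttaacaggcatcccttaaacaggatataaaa
Afm: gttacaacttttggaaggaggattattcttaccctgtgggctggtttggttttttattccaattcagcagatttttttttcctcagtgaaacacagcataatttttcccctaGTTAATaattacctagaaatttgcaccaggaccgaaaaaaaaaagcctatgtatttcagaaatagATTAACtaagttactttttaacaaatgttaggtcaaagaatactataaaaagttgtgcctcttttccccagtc
Gc: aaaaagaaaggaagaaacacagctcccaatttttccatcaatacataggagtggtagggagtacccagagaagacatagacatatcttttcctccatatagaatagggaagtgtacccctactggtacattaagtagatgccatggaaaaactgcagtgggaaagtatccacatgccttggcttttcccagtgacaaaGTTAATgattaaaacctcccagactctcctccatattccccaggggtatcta

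All 4 stretches held GTTAAT on at least 1 strand, against 6.43% of 32851 mouse promoter stretches of this length. Alb had 1 match, at bases 32 to 27 before its start, and Afp had 1 match, at bases 105 to 100. Gc had 1 match and Afm had 2, 1 on each strand. CCAAT on either strand was present in all 4 and in 33.8% of all stretches. TGTTTG, letters contained in sites of Foxa factors, was found 2 times at Alb and 1 time at Afp, and not at Afm or Gc, with 16.0% of all stretches holding it. TATAA was found 1 time each at Afp and Afm, and 22.8% of all stretches held it. The 4 motifs were searched on both strands. No match overlapped another. The shares over all stretches are not matched for base composition. G and C made up 33.2% (Afm) to 42.0% (Gc) of the bases in the 4 stretches. A match is a run of letters and not a measured binding site.

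At Alb the start was covered by state 3 in 9 of 9 strains. The state 3 segment began at 90460801 in every strain, in the bin that holds the transcript start. Its length was 1200 bp in WSB/EiJ, 2000 bp at the median and 2600 bp in A/J and C57BL/6J. The 1000 bp to its left, 90459801 to 90460800, were in state 1 in all 9 strains, so the border between these states fell on the same bin throughout. States 1 to 3, the states found at ends of hepatocyte genes in earlier work on these files, held 64.4% of the Alb window in C57BL/6J, 70.6% at the median and 77.8% in CAST/EiJ (mean 70.7% ± 4.06, SD, n = 9 strains). A run of 11400 bp, from 90457601 to 90469000, was in states 1 to 3 in all strains. Within the gene span itself no bin was in state 13 or 14 in any strain.

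The extent of state 3 over the Alb span differed between strains. A/J had 32 of 80 bins of the span in state 3 and NZO/HlLtJ had 27, while C57BL/6J had 17 and 129S1/SvImJ 13. The other 5 strains had 7 to 11. State 1 made up most of the rest of the first part of the gene, and state 4 the last part, where 13 bins of the window were in state 4 in all strains. From 8 to 11 kb upstream of the start, the interval taken to hold the classical Alb enhancer, all 15 bins were in state 1 or 2 in every strain. State 1 held 6 of these bins in WSB/EiJ and all 15 in A/J.

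At Afp no bin within 1 kb of the start was in state 3 or in state 13 in any strain. The bin of the transcript start was in state 14, the most widespread state of the genome, in 5 strains (A/J, C57BL/6J, CAST/EiJ, NOD/ShiLtJ and PWK/PhJ). It was in state 9 in the other 4 (129S1/SvImJ, DBA/2J, NZO/HlLtJ and WSB/EiJ). The segment over the start was 400 bp long in DBA/2J and 2200 bp in C57BL/6J and PWK/PhJ. Among 17274 genes with a promoter entry, the start bin was in state 3 in all 9 strains in 32.1%, which covers Alb and Afm. It was in state 9 or 14 in all 9 strains in 15.3%, which covers Afp. Only 1.29% of these genes had such a start together with a bin within 10 kb upstream that was in states 1 to 3 in all strains, and Afp was among them. The last 2 patterns were defined after the Afp values had been seen, and their shares are given as a description.

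The flanks of the Afp start carried states 1 to 3 in every strain. Upstream, the 2400 bp from 90484001 to 90486400, which is 6.71 to 4.31 kb before the start, were in states 1 and 2 in all 9 strains. A second block of 400 bp, 2.51 to 2.11 kb before the start, was also in states 1 and 2 throughout. Between them, 7 strains had a state 4 segment of 1200 bp or more. DBA/2J and NOD/ShiLtJ had no state 4 there, but a state 14 segment of 1400 bp and 800 bp, respectively. In part of the first block CAST/EiJ had state 1 where the other 8 strains had state 2. State 1 held 17 of the 35 bins in the 7 kb upstream of Afp in CAST/EiJ, and 3 to 9 in the other strains. Downstream of the start, 400 bp at 1.89 to 2.29 kb were in states 1 to 3 in all strains, next to state 8. State 14 then took over, with 90495001 to 90497200 in state 14 in all 9 strains, and the segment that contains these 2200 bp was 4800 to 5400 bp long in every strain but CAST/EiJ.

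**Figure D1:**
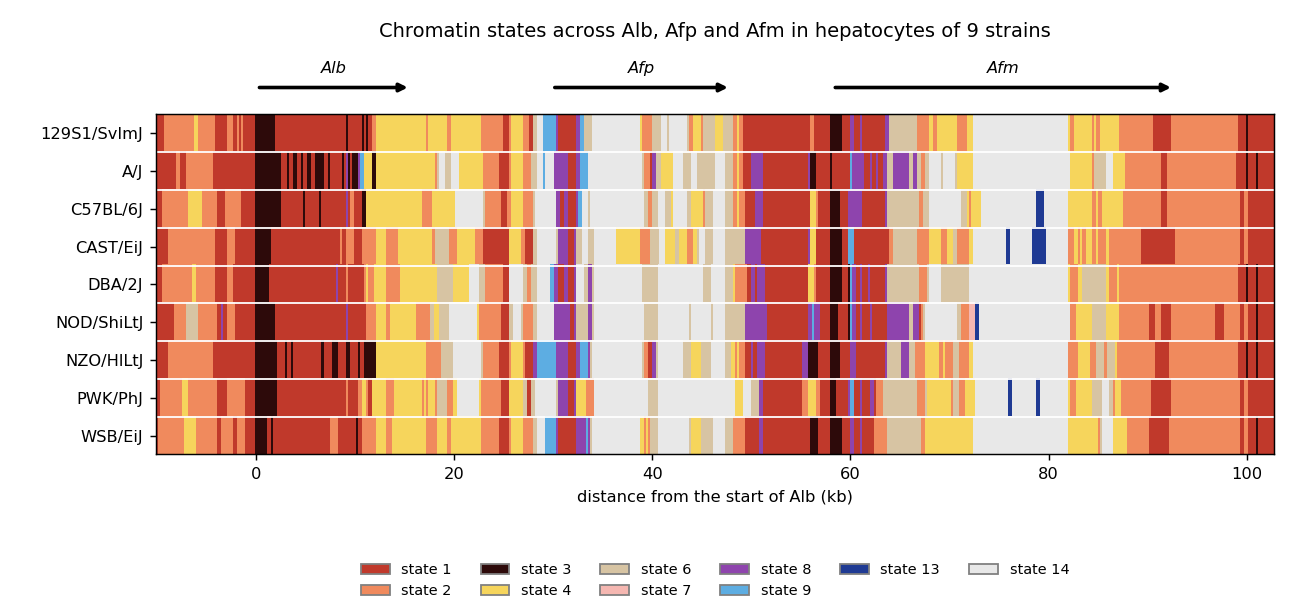
Chromatin state of each 200-bp bin (colour) across Alb, Afp and Afm in the 9 strains (rows), against distance from the start of Alb in kb. Arrows are the gene spans in the direction of transcription. State 3 (black) lies at the starts of Alb and Afm in all 9 strains and nowhere in the span of Afp, where state 14 (light grey) holds 31.5% of the bins in CAST/EiJ to 73.9% in PWK/PhJ, with states 1 and 2 (reds) upstream of its start.

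Over the whole windows, states 1 to 3 held less of Afp than of Alb in every strain. The Afp share was 25.5% in NOD/ShiLtJ, 35.4% at the median and 44.8% in 129S1/SvImJ (mean 34.8% ± 5.91, SD, n = 9 strains). The 9 Afp values all lay below the 9 Alb values. The difference within strains was 35.8 percentage points ± 6.94 (SD), from 25.8 to 45.0. No strain departed from this order (sign-flip permutation test over strains, exact and two-sided, p = 0.0039, the smallest that 9 strains can give). States 1 to 3 were grouped from hepatocyte genes of these files, so the test is not independent of that choice. Without the added 10 kb the difference was 66.7 points ± 7.02 (same test, p = 0.0039), and these spans share no bins. The span of Alb then had 76.2% ± 5.62 in states 1 to 3 and that of Afp 9.54% ± 4.47.

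State 14 showed the opposite order. It held 18.8% of the Afp window in CAST/EiJ, 30.7% at the median and 47.9% in PWK/PhJ (mean 32.4% ± 10.3). At Alb it was 0 in 129S1/SvImJ, CAST/EiJ and WSB/EiJ and 7.78% at most (mean 4.14% ± 3.45). Alb minus Afp was -28.3 points ± 8.01, below 0 in 9 of 9 strains (exact sign-flip permutation test, p = 0.0039). The ranges of the 2 genes do not overlap. For the spans alone it was -52.3 points ± 13.2.

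Of the 14 states, 8 occurred in either window and 6 in neither. All 8 passed an adjusted p of 0.05 (exact sign-flip permutation tests with Benjamini-Hochberg adjustment over the 8). The shares of the 8 states together make up each whole window. These tests are therefore not independent of each other or of those above. Active Alb beside silent Afp was also the contrast for which the genes were listed. Alb was higher in state 1 by 12.7 points, state 2 by 16.1 and state 3 by 6.99, each in 9 of 9 strains with an adjusted p of 0.0052. State 4 was higher at Alb by 10.3 points in 8 strains and lower in 1 (adjusted p = 0.0089). Afp was higher in states 6, 8 and 14 in all 9 strains, with Alb minus Afp at -8.95, -6.75 and -28.3 points (adjusted p = 0.0052 each). State 9 was higher at Afp in 7 strains and equal in the rest, at -2.19 points (adjusted p = 0.0156). State 13 was 0 at both genes in every strain, while it held 12.0% of chromosome 5 on average.

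**Figure D2:**
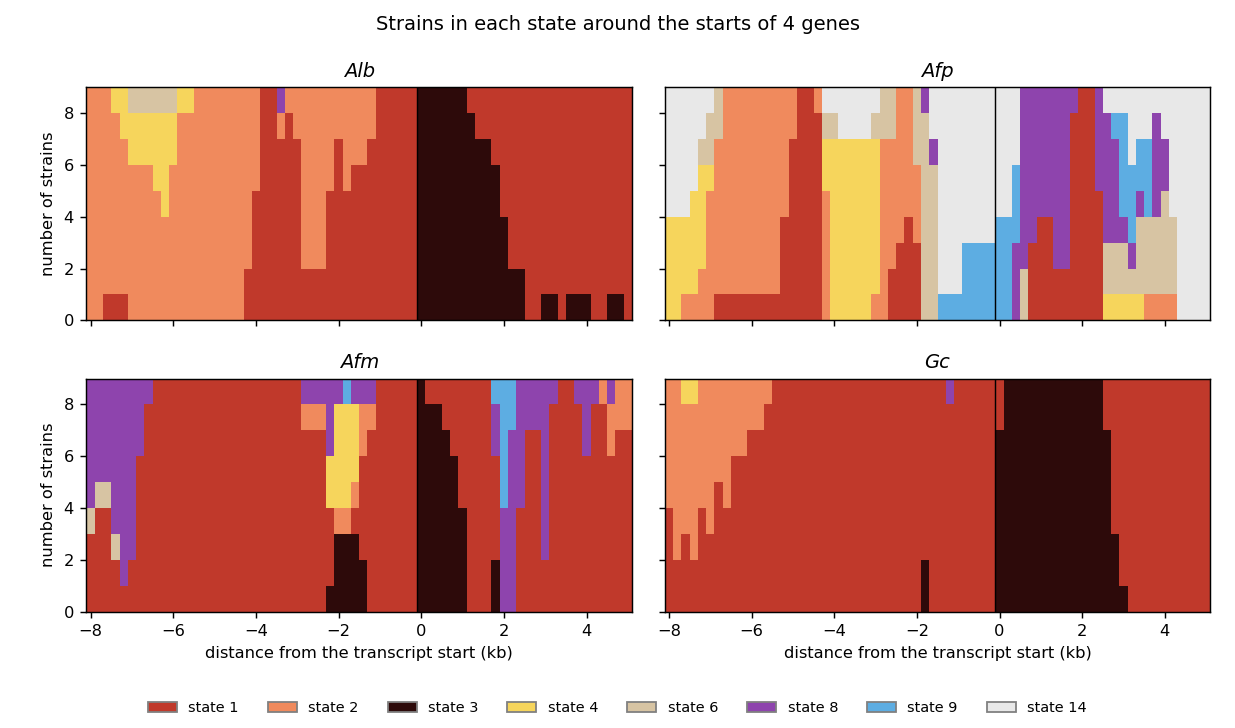
Number of strains (of 9) in each state, per 200-bp bin, from 8 kb before to 5 kb after the transcript starts of Alb, Afp, Afm and Gc; the vertical line marks the bin of the start and distance runs in the direction of transcription. The start bin is in state 3 (black) in 9 strains at Alb and Afm and in 7 at Gc, and in state 9 or 14 (blue, light grey) in all 9 at Afp.

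The 14.1 kb between Alb and Afp held a stretch that divided the strains. In C57BL/6J a state 14 segment ran over 2800 bp, from 90481001 to 90483800, or 14 bins. NZO/HlLtJ had 13 of these bins in state 14, and NOD/ShiLtJ and PWK/PhJ had 11 each. DBA/2J had 5 and A/J 2. The remaining 3 strains, 129S1/SvImJ, CAST/EiJ and WSB/EiJ, had none, and were in states 2 and 4 across it. This stretch was singled out after its states had been seen, and only 1 segmentation stands behind each strain. It ends 200 bp short of the upstream block of Afp that was in states 1 and 2 in all strains.

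Afm, the afamin gene, resembled Alb at its start and Afp in the middle of its span. Its start bin was in state 3 in 9 of 9 strains, in a segment that began at 90518801 and was 200 bp long in A/J and up to 1200 bp in others. Between Afp and Afm, 3600 bp from 90512401 to 90516000 were in state 1 in all 9 strains, 6.55 to 2.95 kb before the Afm start. In A/J, NZO/HlLtJ and WSB/EiJ a further patch of state 3 lay about 2 kb before the start, within 90516601 to 90517600. The Afp window reaches to the Afm start, and the state 3 it holds lies in these bins and at that start. The centre of the Afm span was in state 14 over 90534001 to 90536600 in all strains. Its last part and the 10 kb beyond it held the longest run of states 1 to 3 common to all strains at any member, 14800 bp from 90548801 to 90563600.

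States 1 to 3 held 137 of the 274 bins of the Afm window in A/J and NOD/ShiLtJ, 54.7% of them at the median and 62.0% in CAST/EiJ (mean 55.5% ± 5.08, SD, n = 9 strains). State 13 appeared in the Afm window in 4 strains, with a mean of 0.770% ± 1.13. It lay in or beside the central stretch that was otherwise in state 14. Albfm1, the next gene of the family to the right, had its start bin in state 1 in 9 of 9 strains and 57.2% ± 7.36 of its window in states 1 to 3.

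At Gc, the vitamin D binding protein gene, states 1 to 3 filled the start side and state 14 the middle of the span. A run of 12200 bp around the start, 89446801 to 89459000, was in states 1 to 3 in all 9 strains, and 89455401 to 89457800 was in state 3 in all 9. The state 3 segment was 2600 bp long in the shortest cases and 3200 bp in DBA/2J. It reached over the start bin, to 89458000, in 7 strains. In CAST/EiJ and PWK/PhJ it stopped 1 bin earlier, at 89457800, and the start bin was in state 1. The Gc window was in states 1 to 3 by 49.2% in DBA/2J, 54.5% at the median and 66.0% in PWK/PhJ (mean 55.6% ± 5.99).

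Inside Gc a state 14 segment had nearly the same borders in most strains. It ran from 89427601 to 89434400 or 89434600 in 8 strains, 6800 or 7000 bp. In NOD/ShiLtJ a patch of state 13 cut it short, so that it began at 89429601 and measured 4800 bp. Gc and Afm thus each held a block of state 14 in the span. Runs of states 1 to 3 common to all strains lay on both sides of it, but did not adjoin it. Left of the Gc block the only such run in the window was 400 bp long, from 89425801 to 89426200. The Alb span held no state 14.

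**Figure D3:**
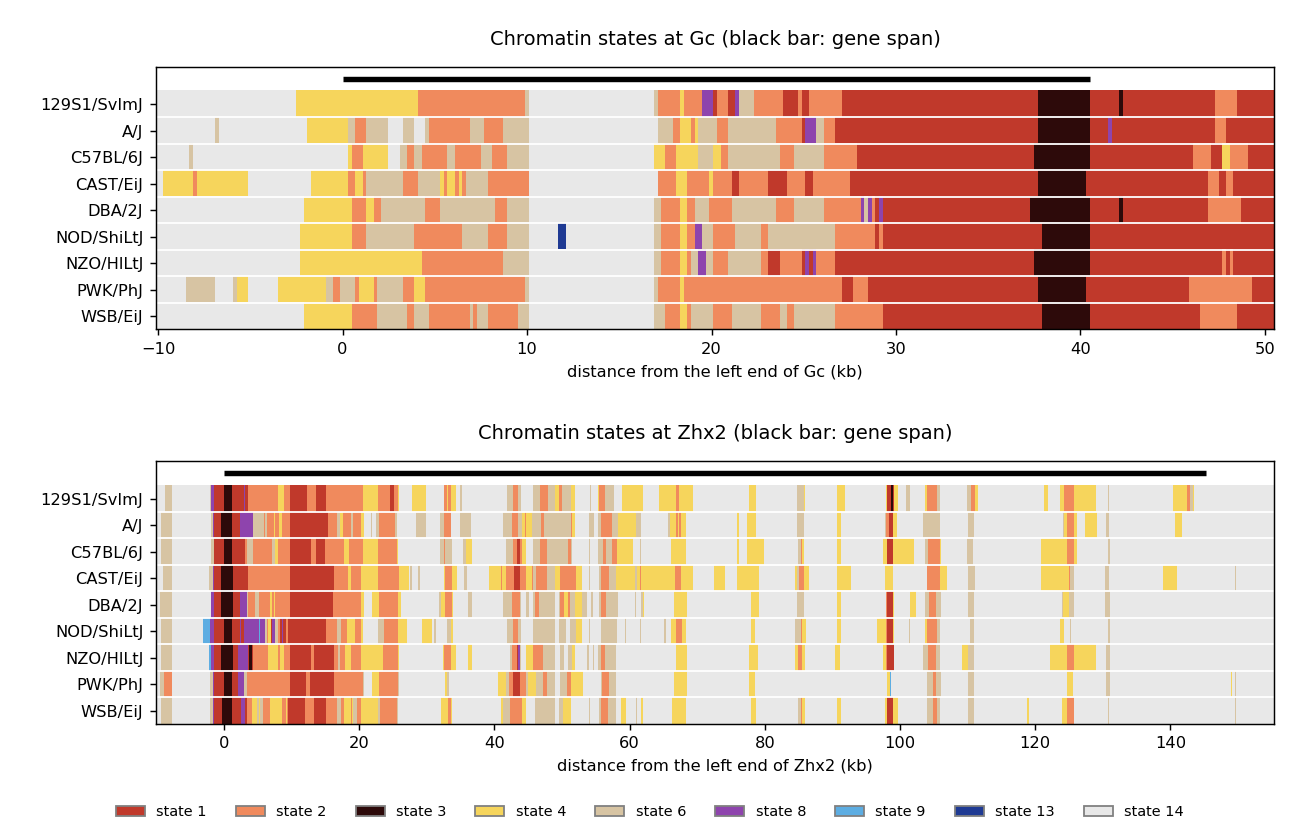
Chromatin state of each 200-bp bin in the 9 strains (rows) at Gc and Zhx2, against distance from the left end of the gene in kb; the Gc start is at the right end of its bar. State 3 (black) lies at the start side of Gc, and at Zhx2 in all 9 strains at the left end, with states 1 and 2 (reds) over the nearby part of the gene and state 14 (light grey) over most of the rest.

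Among the 4 chromosome 5 members the order of the share of states 1 to 3 over the padded windows was Alb, Gc, Afm and Afp. Alb stood above Gc in 9 of 9 strains, although their ranges overlap (lowest Alb 64.4%, highest Gc 66.0%). Over these windows Gc and Afm did not differ beyond their spread: Gc was higher in 4 strains and Afm in 5. Afm stood above Afp in 9 of 9 strains and their ranges do not overlap. Zhx2 was the lowest of the 5 members, below Afp in 9 of 9 strains without overlap. Of the 5 members, 3 had over 50% of the padded window in states 1 to 3 (Alb, Afm and Gc), against 4.6% of all protein-coding genes. The median over all protein-coding genes was 5.44%, and 89.2% of them had a lower share than Afp.

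Each member was also set against its chromosome in the same strain, where states 1 to 3 held 5.57% ± 0.367 of chromosome 5 and 5.55% ± 0.294 of chromosome 15 (SD, n = 9 strains). Alb exceeded its chromosome by 65.1 points ± 4.02, Gc by 50.1 ± 5.87 and Afm by 49.9 ± 4.83. Afp exceeded it by 29.3 points ± 5.66 and Zhx2 by 11.8 ± 2.94. All 5 differences were above 0 in 9 of 9 strains (exact sign-flip permutation tests, adjusted p = 0.0039 each over the 5). States 1 to 3 were grouped from hepatocyte genes of these files. An excess at genes of that kind was therefore partly set by the choice of states, and these tests are not independent of it. The Afp value rested on its flanks. For the gene span alone Afp exceeded chromosome 5 by 3.97 points, in 8 of 9 strains (exact sign-flip permutation test, adjusted p = 0.0156), and within 1 kb of its ends by 10.1 points, in 6 of 9 strains, which missed the threshold (p = 0.0508).

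**Figure D4:**
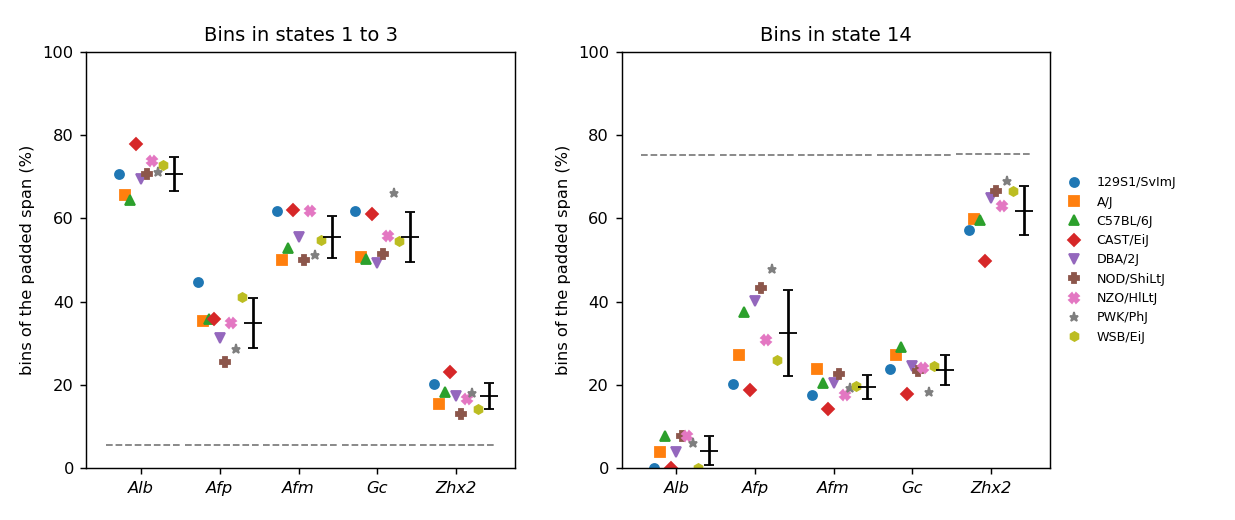
Share of the bins of each member's window in states 1 to 3 (left) and in state 14 (right), in percent; each symbol is 1 strain, the black bar is the mean with its SD over 9 strains, and dashed lines are the mean share of the whole chromosome. Alb and Afp do not overlap in either panel, Zhx2 is the nearest to its chromosome, and the Afp values of state 14 are spread from 18.8% to 47.9%.

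Zhx2, the reported repressor of Afp, carried state 3 at its left end in 9 of 9 strains. The 1200 bp from 57694601 to 57695800 were in state 3 in all strains, and the segment was 1200 to 1800 bp long. The strand of Zhx2 was not used here, so this end is named by position only. A run of 7400 bp at 9.33 to 16.7 kb from this end, 57704001 to 57711400, was in states 1 to 3 in all 9 strains. State 14 filled most of the rest, and 35.9% of the window was in state 14 in every strain, the longest such run being 7800 bp from 57825801 to 57833600. State 13 was absent from the window in all strains.

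By strain, Zhx2 had 12.9% of its window in states 1 to 3 in NOD/ShiLtJ, 17.3% at the median and 23.0% in CAST/EiJ (mean 17.3% ± 3.05, SD, n = 9 strains). State 14 ran from 49.7% in CAST/EiJ to 68.9% in PWK/PhJ (mean 61.9% ± 5.96). A small state 1 patch deep in the gene separated the strains. In C57BL/6J it covered 800 bp, 57792801 to 57793600, at 98.1 to 98.9 kb from the left end. The 4 bins were in states 1 to 3 in 7 strains. They were all in state 4 in CAST/EiJ and in states 4, 9 and 14 in PWK/PhJ. This patch was chosen after its states had been seen.

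Zhx2 was compared with Zhx1 and Zhx3, which encode the related family proteins. Zhx1 had 6.18% ± 3.08 of its window in states 1 to 3 and Zhx3 43.7% ± 4.90. Zhx2 was above Zhx1 by 11.1 points ± 2.16 in 9 of 9 strains, and Zhx2 minus Zhx3 was -26.4 points ± 5.34, below 0 in 9 of 9 (exact sign-flip permutation tests, adjusted p = 0.0039 over the 2). The first order reversed for state 3 alone, where Zhx2 minus Zhx1 was -2.34 points with 0 of 9 strains higher (exact sign-flip permutation test, adjusted p = 0.0039). The windows hold 827 bins at Zhx2 and 248 at Zhx1. The -2.34 points are thus a difference between shares and do not compare amounts of state 3. Within 1 kb of the gene ends Zhx2 and Zhx1 were equal in every strain, and Zhx2 minus Zhx3 was -8.59 points, lower in 4 strains and equal in the rest (exact sign-flip permutation test, adjusted p = 0.25). Zhx1, Zhx2 and Zhx3 had state 3 within 1 kb of a gene end in all 9 strains. Homez, the more distant relative, had none at its gene ends, but its start bin, taken from the promoter table and lying inside the gene span, was in state 3 in all 9 strains.

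State 3 within 1 kb of either gene end was present in all 9 strains at 4 of the 5 members, against 39.4% of protein-coding genes. Afp had it in no strain, as did 47.7% of genes. State 13 within 1 kb of an end was found at no member in any strain, against 17.6% of genes with it in all strains and 39.6% with it in at least 1. Among the 10 protein-coding genes from Gc to Rassf6, 5 had state 3 at an end in all strains and 2 in none. Npffr2 and Adamts3, which lie between Gc and Alb, had 1.27% and 0.116% of their windows in states 1 to 3 and 84.3% and 82.5% in state 14. Cox18 and Ankrd17, also in this interval, had 15.2% and 15.9% in states 1 to 3.

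Genes known to be fetal or under Zhx2 control were read from a list. It held Afp, H19, Gpc3, Dlk1, Igf2, Lpl, Elovl3 and Cyp2a4, of which 7 are protein-coding. State 3 was at an end in all strains in 0 of the 7, against 39.4% of protein-coding genes. It was there in no strain in 5, Afp among them, against 47.7%. State 13 was at an end in all strains in 3, Gpc3 among them, against 17.6%. State 13 held 87.2% of the window of Igf2, a fetal growth factor, 55.5% at the H19 noncoding RNA and 38.9% at Dlk1. It held 10.3% to 28.3% by strain at Lpl, the lipoprotein lipase gene, and a mean of 8.80% at Elovl3, a fatty acid elongase gene. Gpc3, a fetal glypican, had 96.6%, but it is X-linked, and state 13 held 85.8% ± 4.49 of chromosome X in these females. Afp and Cyp2a4 had 0 in every strain, and the median over all protein-coding genes was 1.01%. Cyp2a4, a steroid hydroxylase of adult female liver, had 74.9% ± 1.23 in states 1 to 3. The median of the list for states 1 to 3 was 1.19%, against 5.44% over all genes.

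Factors known to act on the Alb and Afp promoters were mostly high in states 1 to 3. Of 11, 9 had state 3 at an end in all strains, against 39.4% of protein-coding genes. Over 50% of the window was in states 1 to 3 in 9 of the 11, against 4.6% of genes, with a median of 66.7%. Hnf4a had 74.8%, Cebpa 77.1% and Foxa2 68.6%. Hnf4a had state 3 at a gene end in 0 strains, and the bin of its start was in state 1 or 8 in 9. Zbtb20, also reported as an Afp repressor, had 24.7% ± 3.30. Marker lists of liver cell types were read in the same way. States 1 to 3 were grouped from hepatocyte genes of these files, so the hepatocyte list is a description and no independent check of the label. State 3 was at an end in all strains in 6 of 8 hepatocyte markers, beside 39.4% of all protein-coding genes. A start inside the span is missed by this measure. Foxa1 and Tat had the start bin in state 3 in 9 strains, but state 3 at an end in 2 and 4. None of the 4 endothelial, 4 Kupffer cell and leukocyte, 4 bile duct and 4 stellate cell markers had state 3 at an end in all strains. Some of these had it in part of the strains: Cd68 in 8, Sox9 and Clec4g in 6, Pecam1 in 5 and Stab2 in 4. The leukocyte marker Cd68 had 39.1% of its window in states 1 to 3, near the 43.0% of the hepatocyte marker Cyp2e1. The median share of states 1 to 3 was 56.3% for the hepatocyte list and 4.68% or less for the others. The segmentations give no share of other cells, and their part in the values was not tested.

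The genes nearest to each member in mean composition of the 14 states over the window were found among all protein-coding genes, by the sum of absolute differences divided by 2. Alb was nearest to Errfi1, at 3.84 points, Arl4d, at 4.07, and Gm42166, at 6.22. Afp was nearest to Fam210a, at 6.20 points, Dclre1a, at 6.69, and Ndfip1, at 6.77. All 3 of these had state 3 at a gene end in 9 of 9 strains, so the composition of the Afp window was found elsewhere with state 3 at an end. Zhx2 was nearest to Ror1, at 1.52 points, Dpy19l1, at 1.95, and Ptk2b, at 3.27.

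The members lay above the median gene in their difference between strains, as did most of the other gene lists. Averaged over the 36 strain pairs, the share of bins in unlike states was 38.4% ± 8.86 at Afp (SD over pairs), 33.3% ± 6.57 at Alb and 29.0% ± 5.05 at Afm. It was 26.4% ± 6.72 at Gc and 24.9% ± 4.58 at Zhx2, and the median over protein-coding genes was 19.6%. Afp stood above 95.3% of genes, Alb above 88.2%, Afm above 78.9%, Gc above 71.6% and Zhx2 above 67.1%. The median of the 5 members was 29.0%, beside 27.1% for the hepatocyte markers, 27.7% for the genes from Gc to Rassf6, 31.5% for the bile duct markers and 35.1% for the Kupffer cell and leukocyte markers. That median was 20.3% for the stellate cell markers, 20.7% for the Zhx family and 20.8% for the endothelial markers. The list of fetal and Zhx2-regulated genes lay below the median gene, at 19.2%. Pairs share strains, so no test was made. The values depended on the window. Within 1 kb of the gene ends they were 46.2% at Afp, 24.5% at Gc, 17.4% at Afm, 5.30% at Alb and 5.05% at Zhx2. Without padding Afm (34.7%) stood above Alb (26.5%). The most alike pair was 129S1/SvImJ and WSB/EiJ at Alb (21.7%), Afp (17.7%) and Afm (17.9%). The least alike pair at Afp was CAST/EiJ and NZO/HlLtJ, with 56.3%.

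CAST/EiJ, 1 of the wild-derived strains, stood furthest from the other 8 at Afp, Gc and Zhx2. Its bins differed from theirs by 49.3% on average at Afp, against 33.5% to 42.1% for the others, and by 31.3% at Zhx2, against 21.8% to 26.9%. No strain passed Dixon's outlier criterion at any member, nor in any of the 14 sets of strain values looked at. A/J at Alb fell just short of it. Bins in which 1 strain departs from a state common to the rest are called private to it. CAST/EiJ had 24 private bins at Afp, 12.5% of the window, and 52 at Zhx2, 6.29%, while 2.26% of its bins were private over all chromosomes. That background covers all bins and is not matched to gene windows. PWK/PhJ, with 4.38%, and WSB/EiJ, with 2.47%, had more private bins over all chromosomes than CAST/EiJ. In 15 of the 24 at Afp the others had state 14 and CAST/EiJ state 4, and in 7 the others had state 2 and CAST/EiJ state 1. The 7 bins of the second kind form the block 90484001 to 90485400, in the upstream region of Afp. At Zhx2, 51 of the 52 had state 4 in CAST/EiJ in place of state 14. At Alb it was A/J that differed most, by 41.2%, against 27.8% to 34.7% for the others, with 13 private bins. How far strain sequence differences or read depth enter these values was not tested.

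**Figure D5:**
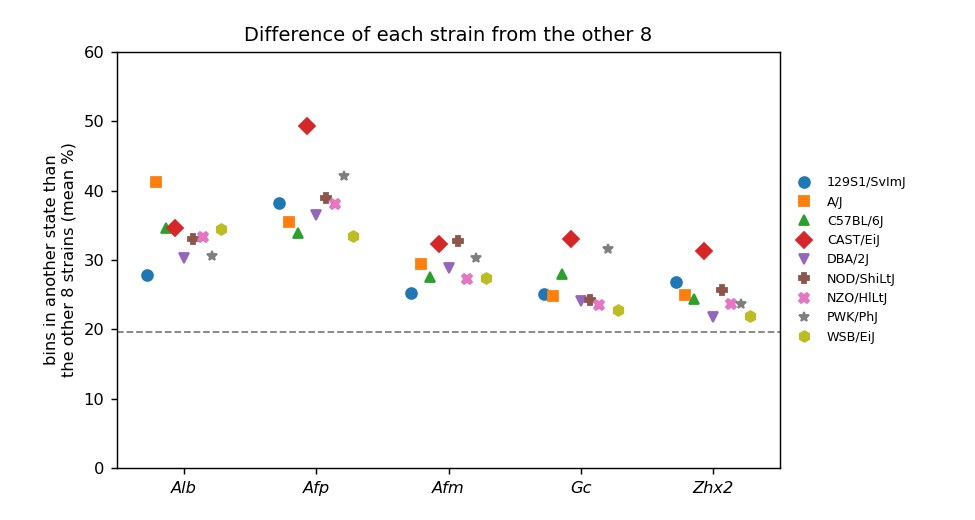
Percentage of each window's bins in which a strain (symbol) has another state than each of the other 8 strains, averaged over those 8; the dashed line is the median of all strain pairs over protein-coding genes, 19.6%. All 45 points lie above the line, A/J is highest at Alb and CAST/EiJ is highest at Afp, Gc and Zhx2.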

How the data were processed

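The authors deposited 1 segmentation per strain, made from 13 libraries (117 in all). Per the file headers each belongs to 1 strain's hepatocytes, and its column 4 is a category, the number of the state, not a count or signal. Per the submitters' processing notes the build was mm10, and FastQC 0.11.5 and MACS 1.4.2 were used. The aligner and the segmentation tool are not given in the sources used here, and the depth per sample is unknown, so no counting interval can be given.

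Segments were written as 200-bp bins, and gene spans came from RefSeq tables of GRCm38.p6. Shares of bins per state were computed for each padded span. Differences within strains were tested over the 9 strains by sign-flip permutation, exact and two-sided (512 sign patterns), adjusted by Benjamini-Hochberg within a family. Common ancestry of strains makes them less than independent. The members, lists and tests were chosen with earlier results of these data known. The genes named are the members, the genes from Gc to Rassf6, the lists of related and marker genes, and the 3 genes nearest in composition to Alb, Afp and Zhx2. One gene of the promoter factor list is not reported here. Alternatives covered padding, windows, single-bin segments, state groups, other backgrounds and each strain left out. Code ran in Python 3.11.15 with matplotlib 3.10.9, pandas 2.3.3 and numpy 2.4.6, and was tested on simulated data. Coordinates are counted from 1.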

Additional observations from a re-analysis of the deposited data

How the results depend on the processing

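Of 236 alternative values for 15 results, 222 kept their direction and their side of the threshold or stayed within the spread, and all values with 1 strain left out were among them. For the tested differences in share the outcome with 1 strain left out was fixed in advance, because all strains lay on 1 side in each. Leaving out 1 strain gave 34.7 to 37.1 points for Alb minus Afp in states 1 to 3 and 28.1 to 30.4 for Afp minus its chromosome. With windows of 1 kb around gene ends, Afp minus its chromosome was 10.1 points (p = 0.0508, exact permutation test), Zhx2 minus Zhx1 was 0.0 and Zhx2 minus Zhx3 -8.59. With state 3 alone, Zhx2 minus Zhx1 was -2.34, as a difference between shares of windows of unequal size. The mean difference between strains moved at Alb to 26.5% without padding and 5.30% at the ends, at Afp to 46.2% at the ends and 32.1% without single-bin segments, and at Afm to 34.7%, 17.4% and 24.0% without padding, at the ends and without single-bin segments. It moved to 22.6% at Gc and 21.2% at Zhx2 without single-bin segments, and to 5.05% at the ends of Zhx2. The end windows hold fewer bins; other causes were not tested. No paired analysis was possible because the replicate numbers mark mice, which are combined in 1 segmentation per strain; the tests pair values within strains, not mice. No depth is known, so no limit from depth can be given.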
